A study of Mus musculus with 23 samples.

Results

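Messenger RNA of F9 cells after 48 h of all-trans retinoic acid (RA) was compared with messenger RNA after 6 h of RA. The comparison was set by sample title: replicates 1 and 2 at 48 h against replicates 1 and 2 at 6 h, paired by replicate number, which is 4 of the 23 samples of the series and 4 of its 14 mRNA libraries. F9 is a single established line of mouse embryonal carcinoma cells, and the labels name no other genotype. All RA groups received 1e-07 M RA, diluted from a stock in dimethyl sulfoxide (DMSO). The 0 h libraries carry the RA tag with a time of 0 h and are called untreated here. DMSO alone, at 0.001%, was given in 1 library at 24 h and 1 at 48 h, and none at 6 h. The 6 h and 48 h cells therefore differ in time in culture as well as in time with RA. Nothing in the labels says that replicates were separate cultures, so p-values rest on the spread among the deposited libraries, and that spread may be technical.

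RA enters the nucleus and binds RA receptors (RAR), which sit on DNA in pairs with retinoid X receptors (RXR), often at direct repeats of a short hexamer. Ligand turns nearby genes on within hours, among them enzymes that destroy RA, so that the signal limits itself. F9 cells are known to leave the pluripotent state under RA and to turn into extraembryonic endoderm, a tissue that makes the basement membrane around the embryo. A first wave of genes was defined as those that differed between 6 h and 0 h, and the question was which of these were shut off again by 48 h, which were held, and which programmes came only later.

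The 4 libraries held 8379684 to 10948932 counts on genes, with 17510 to 19671 genes detected. Replicate 1 and replicate 2 libraries differed in the share of reads outside annotated genes (57.61 to 58.77% against 52.81 to 53.65% of reads given to a gene or to none, in the 4 libraries), and pairing by number removes that difference. Of 15308 genes tested, 6952 (45.4%) differed between 48 h and 6 h, 3553 (23.2%) higher and 3399 (22.2%) lower at 48 h (edgeR quasi-likelihood test with the replicate number as a block, adjusted p under 0.05). The increases were the larger: 2372 of them were at least 2-fold and 331 at least 16-fold, against 1004 and 34 of the decreases. The median log2 change was 1.43 among genes that rose and −0.75 among genes that fell. Without the replicate block 2465 genes were called, 1533 higher and 932 lower, each of them also called with it. Leaving out replicate 1 or replicate 2 of 6 h gave 4526 or 4437 calls.

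Cell type markers were examined first. All 6 pluripotent cell markers fell, and their summed level was 3581 to 4454 CPM (counts scaled to the same library size) at 6 h and 860.5 to 1798 CPM at 48 h. All 6 primitive endoderm markers rose, from a sum of 129.3 to 157 CPM at 6 h to 1150 to 1368 CPM at 48 h. Of the 6 parietal endoderm markers 5 rose, from a sum over the 6 of 130.4 to 277.5 CPM to 2775 to 4136 CPM. Most of the 48 h sum came from 2 basement membrane genes, Col4a1 (2013 and 1632 CPM) and Lama1 (1869 and 909.7 CPM). All 3 tested visceral endoderm markers rose, from a sum over the 6 markers of 0.379 to 3.05 CPM at 6 h to 45.17 to 50.57 CPM at 48 h, while the defining products Afp, Apoa1 and Apoa4 were under 1 CPM at 48 h. Of 7 neuronal markers 5 were tested, 1 rose and 2 fell, and the sum over the 7 was 223.2 to 350.1 CPM at 6 h and 117.2 to 151.3 CPM at 48 h. Of 6 trophoblast markers 3 were tested and 2 rose, Eomes and Gata3, with a sum of 36.8 to 50.43 CPM at 6 h and 83.45 to 84.59 CPM at 48 h; Elf5 was under 1 CPM, and Tpbpa and Prl3d1 had 0 counts in both 48 h libraries. Of 6 mesoderm markers 4 were tested and none was called. The sum over the 6 was 2.41 to 3.22 CPM at 6 h and 4.42 to 4.43 CPM at 48 h. A longer list of mesoderm markers did move. Of its 11 tested genes 6 (54.5%) rose between 6 and 48 h and none fell (median log2 1.34). Over all genes tested 23.2% rose and 22.2% fell. The part of such cells in the results below was not tested. In bulk RNA, fewer cells of a type and less RNA per cell cannot be told apart.

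The first wave held 798 genes, 564 (3.68% of genes tested) higher and 234 (1.53%) lower at 6 h than at 0 h. Of the 564 increases, 246 (43.6%) were shut off, which means that they were called lower at 48 h than at 6 h and had at most 0.5 of their 6 h log2 change left. A further 34 fell back but had more than that left, 152 (27%) were kept, 124 (22%) went further, and 8 met none of these rules. Kept means called above 0 h at 48 h with no call between 6 and 48 h, which does not show that the level stayed the same; between 48 h and 0 h 7075 genes (46.2%) were called. Of the 234 decreases, 116 (49.6%) came back by the mirror rule, 2 came back in part, 56 (23.9%) were kept, 47 (20.1%) went further, and 13 met none of the rules. The 3 comparisons behind these classes (6 h against 0 h, 48 h against 6 h and 48 h against 0 h) share libraries, so the classes are a description and no test was made of their sizes. Without the replicate block the first wave shrank to 79 genes, 14 of them increases that were shut off. With replicate 1 of 6 h left out 109 increases were shut off, and with replicate 2 left out 96. Leaving out replicate 1 or 2 of 0 h gave 131 or 105, and leaving out replicate 2 of 24 h gave 373.

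**Figure D1:**
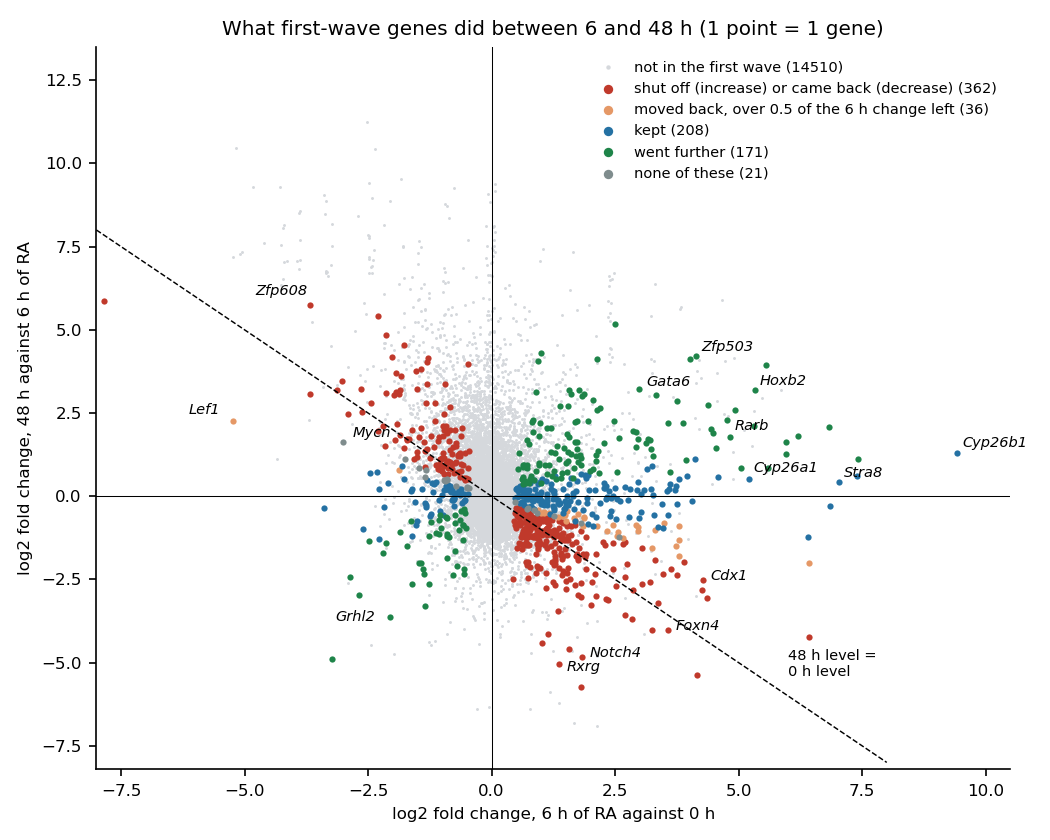
Log2 fold change of each tested gene from 0 h to 6 h of RA (horizontal) against its log2 fold change from 6 h to 48 h (vertical), with first-wave genes coloured by class; on the dashed line the 48 h level equals the 0 h level. The shut-off increases lie on either side of the line at the lower right, and genes such as Gata6 and Hoxb2 lie above the horizontal axis. Positions of genes with few counts in a group depend on the small count that edgeR adds.

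The increases that were shut off lay near the untreated level at 48 h at the median, which the rule that chose them in part sets. Their median log2 change was 1.09 from 0 h to 6 h, −1.25 from 6 h to 48 h and −0.10 from 0 h to 48 h. At 48 h 66 of the 246 were called below 0 h and 19 were still called above it. Over all genes tested 21.9% were called below 0 h at 48 h and 24.3% above it. Of the 246, 154 had their highest mean level at 6 h, 68 at 12 h and 24 at 24 h. The rule, which asks for a fall after 6 h, in part sets this too. Just inside the limit lay Dlx3, with 0.496 of its 6 h change left, and just outside it Whamm, with 0.505. The lowest share left was −4.81, where a negative share means a level below 0 h.

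**Figure D2:**
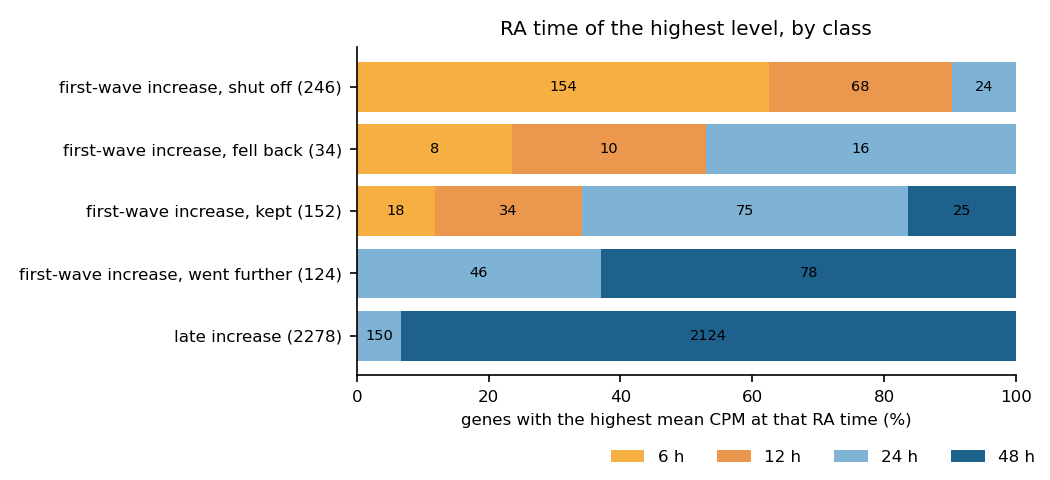
Share of genes in each class of increase whose highest mean CPM among the RA times fell at 6, 12, 24 or 48 h; the numbers in the bars count genes. The highest mean was at 6 h in 154 of 246 shut-off genes, at 24 h in 75 of 152 kept genes and at 48 h in 2124 of 2278 late increases. By the class rules a shut-off gene falls after 6 h and a late increase rises, which in part sets these times.

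Notch4, a receptor of the Notch pathway known from endothelium, was among the deepest of these falls. Its level was 118 and 115.4 CPM in the 6 h libraries and 5.93 and 2.71 CPM in the 48 h libraries. The fall was 4.83 on the log2 scale (SE 0.21, edgeR adjusted p = 3.41e-08), and both 48 h libraries lay below all 4 untreated libraries, which held 22.95 to 37.13 CPM. Foxn4, a forkhead factor of retinal and neural precursors, followed the course of a pulse. It held 1.95 to 3.39 CPM at 0 h, 27.66 and 21.14 CPM at 6 h, and 1.19 and 1.72 CPM at 48 h, a fall of 4.02 (SE 0.31, edgeR adjusted p = 1.08e-06). Eras, a Ras family protein of embryonic stem cells, held 173.2 and 153.9 CPM at 6 h and 12.61 and 6.47 CPM at 48 h, against 67.22 to 109.2 CPM at 0 h. Edn2, an endothelin ligand, held 10.03 and 6.54 CPM at 6 h and had only 3 counts over the 48 h libraries, a count ratio of 57.5 (95% interval 19.3 to 281.9, counting error only). Cpne5, a calcium-dependent membrane-binding protein, held 93.02 and 75.55 CPM at 6 h and 6.68 and 2.13 CPM at 48 h, and Col6a5, a collagen chain, 3.43 and 10.71 CPM and then 0.216 and 0.328 CPM. Igsf21, an adhesion protein of the immunoglobulin family, fell by 3.57 (SE 0.40, edgeR adjusted p = 2.50e-05) and was not called without the block (adjusted p = 0.0738).

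Retinoid receptors were among the genes that turned back. Of 21 tested genes of the retinoid pathway as a whole, 12 had risen by 6 h, against 3.68% of all genes tested. Between 6 and 48 h 10 (47.6%) rose and 3 (14.3%) fell. Over all genes tested 23.2% rose and 22.2% fell, so the share that fell was below that of all genes. The 3 that fell were all receptor genes. With replicate 2 of 48 h or of 6 h left out, 6 rose. Rxrg, the gene of RXR gamma, rose in both 6 h libraries to 20.43 and 20.57 CPM, from 7.34 and 8.27 CPM in the paired untreated libraries. By 48 h it held 0.970 and 0.328 CPM, a fall of 5.05 (SE 0.38, edgeR adjusted p = 9.41e-07). An unpaired untreated library held 23.54 CPM, so the rise at 6 h did not clear all 0 h libraries. Rara, the gene of RAR alpha, held 243.3 and 135.5 CPM at 6 h and 78.06 and 56.39 CPM at 48 h, a fall of 1.45 (SE 0.18, edgeR adjusted p = 4.47e-05) that was not called without the block (adjusted p = 0.0822). Rarg, the gene of RAR gamma, was no first-wave gene: its 629.8 to 697.3 CPM at 6 h lay near the 509.7 to 689.7 CPM of 0 h, and its 186.9 and 104.3 CPM at 48 h lay below all of them. Rxra, the gene of RXR alpha, held 43.15 and 16.02 CPM at 6 h and 51.32 and 37.95 CPM at 48 h; its call (edgeR adjusted p = 0.0167) was lost with replicate 2 of 48 h (0.226) or of 6 h (0.279) left out and without the block (0.531).

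Transcription factors and signalling genes of several kinds fell with them. Cdx1, a caudal homeobox factor and direct RA target, held 50.38 and 32.51 CPM at 6 h, 62.06 and 40.03 CPM at 24 h, and 7.76 and 6.56 CPM at 48 h. Its fall after 6 h was 2.50 (SE 0.30, edgeR adjusted p = 5.30e-05), yet both 48 h libraries remained above all 0 h libraries (0.65 to 4.19 CPM). Elavl3, an RNA-binding protein of neurons, held 188.5 and 82.19 CPM at 6 h and 26.31 and 15.98 CPM at 48 h. Inhbb, the activin beta B subunit, held 211.7 and 80.76 CPM at 6 h and 44.96 and 15.57 CPM at 48 h; it was not called without the block (adjusted p = 0.105). Tfap2c, a factor of trophoblast and germ cells, held 25.76 and 79.06 CPM at 6 h and 9.6 and 19.1 CPM at 48 h, also without a call when the block was dropped (adjusted p = 0.273). Dusp1 and Dusp5, phosphatases that switch off MAP kinases, fell by 0.92 (SE 0.20) and 1.09 (SE 0.22), with edgeR adjusted p of 0.00256 and 0.00131; Dusp1 was not called without the block (0.0644). Egr1, an immediate early factor, held 23.98 and 67.21 CPM at 6 h and 3.77 and 2.87 CPM at 48 h, but its rise at 6 h missed the threshold (edgeR adjusted p = 0.0503).

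Pluripotency, cell cycle and metabolic genes also had members in the shut-off class. Dppa2, a chromatin protein of pluripotent cells, held 152.2 and 140.3 CPM at 6 h, above all untreated libraries (56.95 to 77.71 CPM), and 43.66 and 41.97 CPM at 48 h, below all of them. Rpa1, a subunit of the protein that coats single-stranded DNA, held 681.1 and 692.7 CPM at 6 h and 310.0 and 282.3 CPM at 48 h. The mitotic kinase gene Cdk1 fell by 0.78 (SE 0.13, edgeR adjusted p = 0.000371; 0.0603 without the block). Slc2a1, the main glucose transporter, fell by 0.95 (SE 0.17, edgeR adjusted p = 0.000654), and Elovl6, which lengthens fatty acids, fell by 1.41 (SE 0.18, edgeR adjusted p = 7.28e-05). For each of these last 3, 1 of the 48 h libraries lay within the range of the 4 untreated libraries and the other below it.

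The increases that were kept included the enzymes that clear RA. Their median log2 change was 1.54 from 0 h to 6 h and 0.01 from 6 h to 48 h, and the highest group mean fell at 24 h in 75 of the 152 and at 48 h in 25. Cyp26a1, which oxidises RA, held 1.65 to 7.52 CPM at 0 h, 97.21 and 212.4 CPM at 6 h and 191.2 and 232.5 CPM at 48 h. The 6 h and 48 h ranges overlap, and the change of 0.52 (SE 0.29) missed the threshold (edgeR adjusted p = 0.179; 0.0394 with replicate 1 of 24 h left out). Cyp26b1, its relative, had 0 counts in the 0 h libraries, 11.04 and 7.39 CPM at 6 h, at least 110.8-fold higher than the floor of 3 counts over the group, and 15.2 and 25.49 CPM at 48 h. Cyp26c1 held 1.9 and 2.46 CPM at 6 h and 6.25 and 4.02 CPM at 48 h. For both, the 48 h libraries lay above the 6 h libraries without a call (edgeR adjusted p = 0.0745 and 0.0694), as 31.8% of all genes tested had both 48 h libraries above both 6 h libraries and 27% both below. Cyp26b1 had a call with replicate 1 of 48 h left out (adjusted p = 0.000298), and Cyp26c1 with either 24 h library left out (adjusted p = 0.0306 and 0.0287).

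Stra8, a gene of meiotic entry that RA turns on, held 0 to 1.76 CPM at 0 h, 48.1 and 74.7 CPM at 6 h, 262.7 and 220.2 CPM at 24 h, and 94.77 and 72.54 CPM at 48 h. Its 6 h and 48 h libraries overlap (edgeR adjusted p = 0.0925; 0.0225 with replicate 2 of 6 h left out). Nrip1, a co-repressor that ligand-bound receptors recruit, held 84.64 and 84.08 CPM at 6 h and 62.42 and 100.0 CPM at 48 h, against 9.21 to 15.33 CPM at 0 h. Snai1, a zinc finger repressor of epithelial genes, held 24.49 and 10.05 CPM at 6 h and 35.69 and 15.08 CPM at 48 h, against 2.54 to 7.09 CPM at 0 h. Csn3, the kappa casein gene, held 1.78 and 5.69 CPM at 6 h and 5.82 and 4.75 CPM at 48 h.

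Of the 18 early RA targets in the list, 13 were first-wave increases, against 3.68% of all genes tested. Between 6 and 48 h 13 (72.2%) rose and 1 (5.56%), Cdx1, fell, against 23.2% and 22.2% of all genes tested. Not all of the list was called at 6 h, though a missed call does not show that a gene had not answered. Meis2 held 16.2 to 44.02 CPM at 0 h, and both 6 h libraries lay above that range. Its log2 change from 0 h to 6 h was 0.58 (SE 0.26, edgeR adjusted p = 0.310). Nr2f2 held 0 to 0.318 CPM at 0 h, with a log2 change to 6 h of 1.73 (SE 1.54, edgeR adjusted p = 0.710). Meis2, a homeobox partner of Hox proteins, held 51.27 and 56.21 CPM at 6 h and 95.85 and 130 CPM at 48 h (edgeR adjusted p = 0.00507; 0.057 without the block and 0.0569 with replicate 2 of 6 h left out). Nr2f2, an orphan nuclear receptor, held 0.127 and 0.284 CPM at 6 h and 6.58 and 15.74 CPM at 48 h, a rise of 5.61 (SE 0.70, edgeR adjusted p = 4.88e-05).

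The proximal promoters of first-wave genes were searched for direct repeats of the receptor hexamer (AGGTCA or AGTTCA, or either of these with G as the first letter), on both strands, in windows from 250 bases before to 50 after the start of the gene. A promoter was found for 10472 of the 15308 genes tested (RefSeq, GRCm38.p6). The repeat with a spacer of 5 bases (DR5) was in 5 of these (0.0477%), and 2 of the 5 were first-wave genes, Cyp26a1 in the kept class and Rarb among those that went further. The repeat with a spacer of 2 bases (DR2) was in 12 (0.115%), of which Ano1 (kept) and Tinagl1 (went further) were first-wave genes. DR5 was in 0.0974% and DR2 in 0.268% of all 32851 promoters of the table. None of the 188 shut-off increases with a promoter held either, but with matches this rare the classes cannot be compared. With a spacer of 1 base (DR1) the repeat was in 28 (0.267%) of the genes tested, among them the first-wave increases Smyd5 (shut off) and Ak4 (went further). A match is a description of the letters and not a bound site. These 4 promoters are shown because they belong to first-wave genes that were still high at 48 h; each is the 250 bases before the start, on the sense strand, with the repeat in capitals.
Cyp26a1, chr19:37697558-37697807, plus strand: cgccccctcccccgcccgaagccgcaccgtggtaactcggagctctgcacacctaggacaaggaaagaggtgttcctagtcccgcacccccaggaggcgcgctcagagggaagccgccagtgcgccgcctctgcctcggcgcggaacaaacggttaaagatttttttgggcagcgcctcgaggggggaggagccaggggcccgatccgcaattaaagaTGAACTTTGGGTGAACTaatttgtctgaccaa
Rarb, chr14:16575477-16575726, minus strand: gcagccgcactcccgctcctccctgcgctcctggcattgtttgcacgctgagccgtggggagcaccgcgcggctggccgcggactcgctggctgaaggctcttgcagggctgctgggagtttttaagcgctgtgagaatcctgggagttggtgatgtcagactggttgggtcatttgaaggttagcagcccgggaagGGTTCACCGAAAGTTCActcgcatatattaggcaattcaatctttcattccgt
Ano1, chr7:144738574-144738823, minus strand: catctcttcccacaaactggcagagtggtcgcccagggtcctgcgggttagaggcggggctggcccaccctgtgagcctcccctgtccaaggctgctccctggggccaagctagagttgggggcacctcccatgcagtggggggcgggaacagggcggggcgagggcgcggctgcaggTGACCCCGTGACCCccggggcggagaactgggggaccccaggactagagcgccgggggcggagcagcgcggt
Tinagl1, chr4:130175123-130175372, minus strand: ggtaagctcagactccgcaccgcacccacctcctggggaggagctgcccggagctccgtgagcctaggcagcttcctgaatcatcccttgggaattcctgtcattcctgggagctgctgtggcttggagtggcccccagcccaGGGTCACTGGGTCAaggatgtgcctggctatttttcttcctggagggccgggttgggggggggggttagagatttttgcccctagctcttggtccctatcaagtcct

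The 124 increases that went further held genes of RA handling and of endoderm. Their median log2 change was 1.70 from 0 h to 6 h and 1.45 from 6 h to 48 h. Rarb, the gene of RAR beta whose promoter carries the repeat printed above, held 0.464 to 1.17 CPM at 0 h, 15.23 and 14.69 CPM at 6 h and 49.92 and 53.28 CPM at 48 h, a second rise of 1.78 (SE 0.18, edgeR adjusted p = 8.48e-06). Crabp2, which carries RA to its receptors, held 23.73 and 19.34 CPM at 6 h and 175.1 and 112.7 CPM at 48 h. Stra6, a retinol uptake receptor, and Dhrs3, which reduces retinal, rose again by 1.27 (SE 0.20) and 1.91 (SE 0.22), with edgeR adjusted p of 0.000267 and 2.98e-05. Tinagl1, a basement membrane protein, rose by a further 1.92 (SE 0.21, edgeR adjusted p = 1.88e-05). Ano1, a chloride channel and the other gene with a DR2 match, held 7.36 and 4.64 CPM at 6 h and 5.93 and 7.29 CPM at 48 h, with overlapping libraries.

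Some endoderm factors were in the first wave and rose again. Gata6, a master factor of primitive endoderm, held 21.07 and 9.86 CPM at 6 h and 148.5 and 119.4 CPM at 48 h, a rise of 3.21 (SE 0.29, edgeR adjusted p = 1.25e-05). Foxa1, a pioneer factor of endoderm, held 9.14 and 10.62 CPM at 6 h and 71.7 and 63.61 CPM at 48 h. Sox7, another endoderm factor, was 1.91-fold higher at 48 h, with 111.3 and 107.7 CPM at 6 h and 235.9 and 188.4 CPM at 48 h. Col4a1 and Col4a2, the chains of type IV collagen, are encoded side by side and moved together: Col4a1 held 146.4 and 81.9 CPM at 6 h and 2013 and 1632 CPM at 48 h, and Col4a2 held 99.36 and 40.1 CPM at 6 h and 1556 and 983.1 CPM at 48 h. Zfp503, Pmp22 and Sdk2 rose by 4.20 (SE 0.42), 4.12 (SE 0.27) and 4.13 (SE 0.36) between 6 and 48 h. Zfp503 is a zinc finger repressor, Pmp22 a myelin and epithelial junction protein, and Sdk2 a cell adhesion protein. Plagl1, an imprinted zinc finger factor, held 68.78 and 63.04 CPM at 6 h and 295.9 and 338.0 CPM at 48 h.

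The Hox clusters, arrays of homeobox genes read from the anterior end to the posterior end in time, split by position. Of 9 tested Hoxa genes 5 were first-wave increases, of 10 Hoxb genes 5, and of 7 Hoxc and 3 Hoxd genes 0. The Hoxa, Hoxb, Hoxc and Hoxd lists held 11, 10, 9 and 9 genes, and the others were not tested. Genes without counts at 6 h, such as Hoxc8 and Hoxc9, passed the low-count filter through later groups. They could only be called higher. Between 6 and 48 h 7 of 9 Hoxa, 8 of 10 Hoxb, 6 of 7 Hoxc and 2 of 3 Hoxd genes rose and none fell. Over all genes tested 23.2% rose and 22.2% fell, and 3.68% were first-wave increases. With replicate 2 of 48 h left out the Hoxa count was 4 and the Hoxd count 0, and the Hoxd count was also 0 with replicate 1 of 6 h left out and 1 with either of the other libraries of 6 and 48 h left out. Hoxb5 was kept, and Hoxb1 to Hoxb4 went further. Hoxb1 held 2.92 and 6.73 CPM at 6 h and 17.47 and 30.0 CPM at 48 h, a rise of 2.29 (SE 0.28, edgeR adjusted p = 4.29e-05). Hoxb2 held 5.08 and 5.02 CPM at 6 h and 43.34 and 50.33 CPM at 48 h, a rise of 3.21 (SE 0.23, edgeR adjusted p = 8.58e-07), with a peak of 74.88 and 59.96 CPM at 24 h. Hoxb5 held 12.69 and 11.47 CPM at 6 h, 55.81 and 36.01 CPM at 24 h and 16.71 and 19.84 CPM at 48 h (edgeR adjusted p = 0.0624; 0.0108 with replicate 1 of 48 h and 0.0413 and 0.0454 with either 24 h library left out). Hoxb9 held 3.43 and 3.98 CPM at 6 h and 30.83 and 43.03 CPM at 48 h. Hoxc8 and Hoxc9 had 0 counts at 0, 6 and 12 h and reached 2.59 and 13.03 CPM, and 2.8 and 10.33 CPM, at 48 h. That is at least 52.4-fold and 43.5-fold above the floor of 3 counts over the 6 h group; by DESeq2 neither was called (adjusted p = 0.151 and 0.167). Hox genes overlap antisense transcripts and no strand setting is given, so the counts of single members are uncertain.

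**Figure D3:**
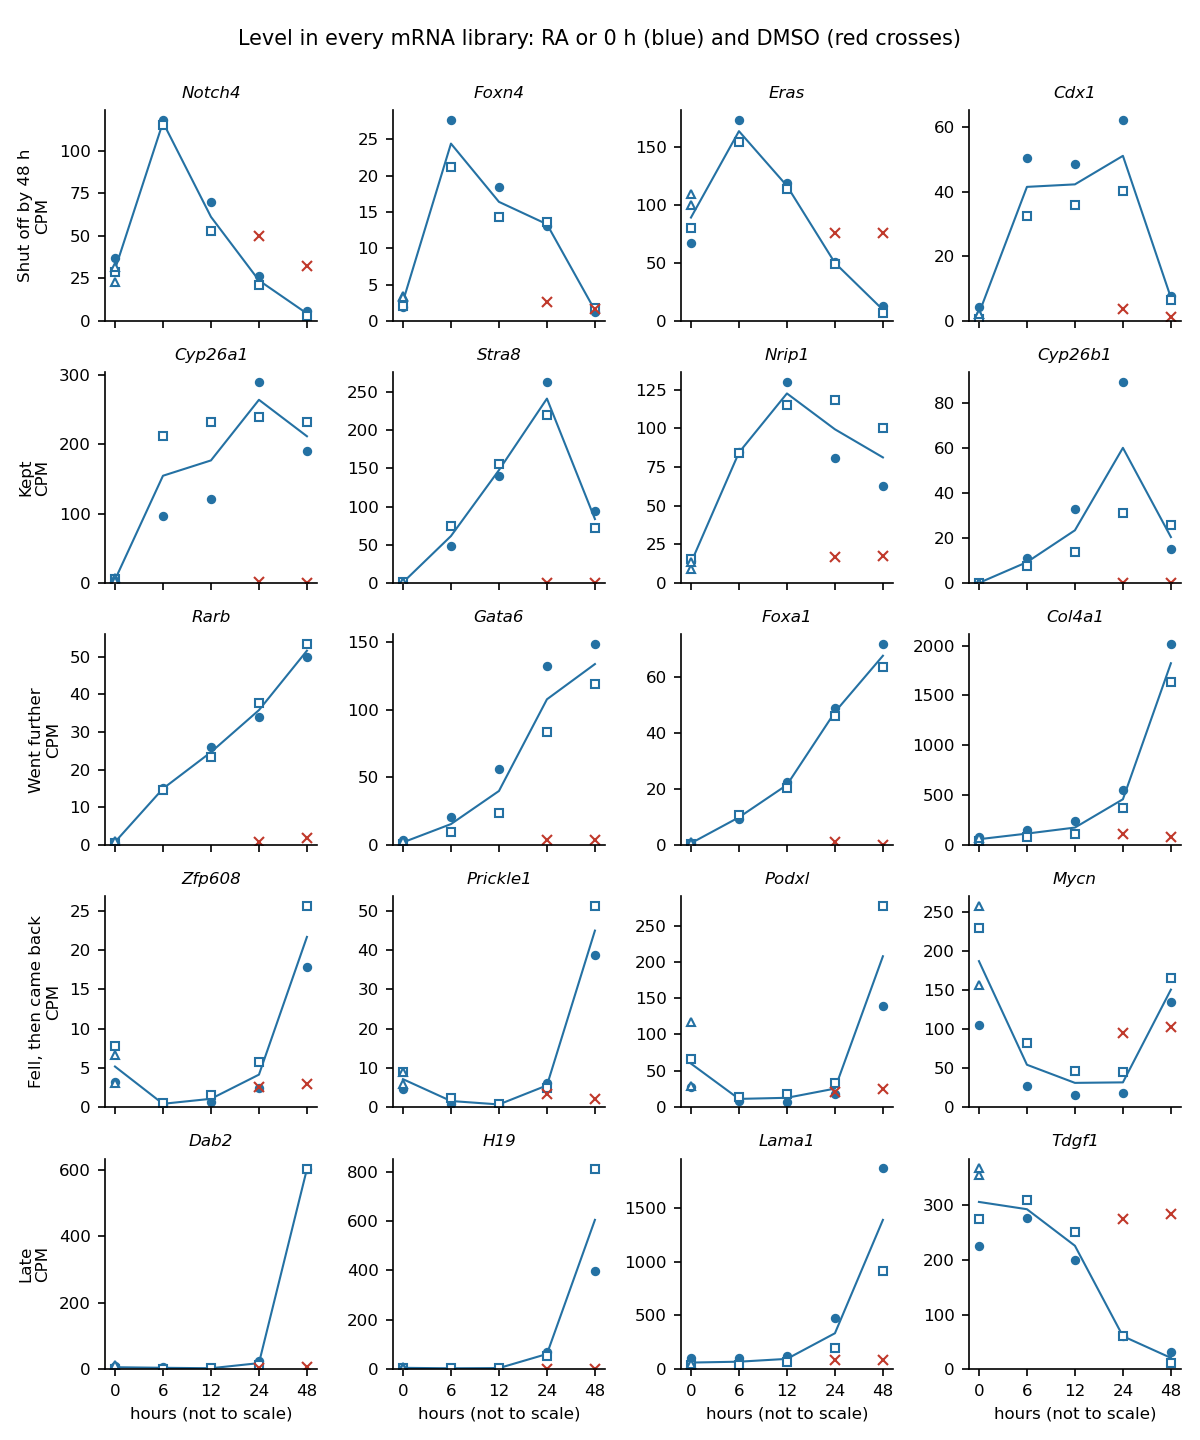
CPM of 20 genes in every mRNA library at 0, 6, 12, 24 and 48 h, in rows for shut off, kept, went further, fell and came back, and late; filled circles are replicate 1, squares replicate 2, triangles 0 h replicates 3 and 4, red crosses DMSO at 24 and 48 h, and the line joins group means. Notch4 and Foxn4 peak at 6 h, Stra8 at 24 h, and Dab2 and H19 stay low until 24 h or later.

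Among first-wave decreases, many of those that came back passed the untreated level. The 116 had a median log2 change of −1.06 from 0 h to 6 h and 1.65 from 6 h to 48 h. At 48 h 54 of them were called above 0 h, as were 24.3% of all genes tested. The rule that chose the 116 asks for a rise after 6 h, so it in part sets this count. Most were lowest early, 68 at 6 h and 44 at 12 h, which the class rule also sets in part. Zfp608, a zinc finger factor, held 3.03 to 7.8 CPM at 0 h, 0.254 and 0.569 CPM at 6 h and 17.79 and 25.57 CPM at 48 h, a rise of 5.74 (SE 0.40, edgeR adjusted p = 6.66e-07). Podxl, a surface sialoprotein of kidney and pluripotent cells, held 27.85 to 117.2 CPM at 0 h, 8.76 and 13.65 CPM at 6 h and 138.9 and 276.8 CPM at 48 h. Prickle1, a planar polarity protein, held 0.888 and 2.18 CPM at 6 h and 38.81 and 51.15 CPM at 48 h. Clic5, Syt13 and Rragd, a chloride channel protein, a synaptotagmin and a Rag GTPase of nutrient sensing, rose by 5.42 (SE 0.34), 4.53 (SE 0.31) and 4.16 (SE 0.29).

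Lamb1 and Pxdn belong to the basement membrane and had dipped before they rose. Lamb1, the laminin beta chain, held 61.67 and 43.32 CPM at 6 h, below all untreated libraries (65.21 to 105.2 CPM), and 969.1 and 688.4 CPM at 48 h, a rise of 3.97 (SE 0.14, edgeR adjusted p = 9.65e-09). Its dip at 6 h was small (log2 −0.49) and near the threshold (edgeR adjusted p = 0.0477). Pxdn, a peroxidase that crosslinks type IV collagen, held 18.27 and 13.84 CPM at 6 h and 146.5 and 188.0 CPM at 48 h. Fzd2, a Wnt receptor, held 1.78 and 2.18 CPM at 6 h and 25.12 and 29.59 CPM at 48 h. Mycn, a Myc family factor of pluripotent cells, returned to the untreated range: 105.0 to 258.1 CPM at 0 h, 26.52 and 82.0 CPM at 6 h and 135.4 and 165.9 CPM at 48 h (edgeR adjusted p = 0.000254; 0.216 without the block and 0.111 with only the 4 libraries). Fst, an activin antagonist, held 4.34 to 13.56 CPM at 0 h, 0.761 and 1.23 CPM at 6 h and 4.96 and 13.52 CPM at 48 h, and was not called without the block (adjusted p = 0.122).

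Other first-wave decreases were held or deepened. Lef1, a nuclear effector of Wnt signals, came back in part: 5.69 to 25.2 CPM at 0 h, 0 and 0.664 CPM at 6 h and 0.108 and 3.44 CPM at 48 h. Its call rests on single libraries (edgeR adjusted p = 0.0484; 0.118 and 0.167 with replicate 1 or 2 of 6 h left out, and a log2 change of −0.28 with replicate 2 of 48 h left out). Grhl2 and Esrp1, a transcription factor and a splicing regulator of epithelia, went further. They do not stand for their list of epithelial adhesion genes. Of its 20 tested genes 8 (40%) rose and 4 (20%) fell between 6 and 48 h. Over all genes tested the shares were 23.2% and 22.2%. Esrp2, the relative of Esrp1, was a late increase. Grhl2 held 17.67 to 85.22 CPM at 0 h, 3.05 and 14.12 CPM at 6 h and 0.323 and 0.984 CPM at 48 h, a fall after 6 h of 3.64 (SE 0.61, edgeR adjusted p = 0.000524; 0.139 without the block). Esrp1 held 1.65 and 12.61 CPM at 6 h and 0.647 and 1.39 CPM at 48 h (edgeR adjusted p = 0.000953; 0.0964 with replicate 2 of 48 h left out and 0.266 without the block). Utf1 and Sox2, factors of pluripotent cells, fell again by 2.18 (SE 0.13) and 1.02 (SE 0.18), Utf1 with no call when the block was dropped (edgeR adjusted p = 0.0806). Dnmt3l, a partner of the de novo DNA methyltransferases, fell again by 1.10 (SE 0.18, edgeR adjusted p = 0.000427). Dnmt3b, the methyltransferase itself, was kept down, with 107.4 and 130.8 CPM at 6 h, 107.9 and 165.5 CPM at 48 h and 193.3 to 323.6 CPM at 0 h. Otx2, an anterior homeobox factor, held 13.32 to 97.5 CPM at 0 h and 0.888 to 13.74 CPM in the 4 libraries of 6 and 48 h, with overlapping ranges (edgeR adjusted p = 0.0608, and from 0.0140 without the filter to 0.840 with replicate 2 of 6 h left out).

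Genes called between 6 and 48 h but not at 6 h far outnumbered the first wave. A gene was counted as late when it was called between 6 and 48 h, was not called at 6 h and had an absolute log2 change under 0.5 from 0 h to 6 h. This does not show that a late gene had not begun to move by 6 h. There were 2278 late increases (median log2 1.09) and 2810 late decreases (median −0.70). Another 1033 increases and 262 decreases had moved by 0.5 or more at 6 h without a call, and 374 of these increases were under 1 CPM at 0 and 6 h. Of the late increases 2124 had their highest mean at 48 h, and of the late decreases 2558 had their lowest mean there. The rule asks for a change after 6 h, so it in part sets these counts. Without the replicate block 906 late increases and 719 late decreases were called. With replicate 1 or 2 of 6 h left out there were 1431 or 1269 late increases and 1627 or 1737 late decreases.

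Primitive endoderm regulators had the highest share of members that rose among the lists tested. All 17 tested members rose, against 23.2% of all genes tested. Their median log2 change was 4.00, against −0.01 over all genes. Of the 17, 8 were late, 4 had started in the first wave (among them Foxa1, Gata6 and Sox7), 1 had first fallen (Fst) and 4 lay between. Dab2, an endocytic adaptor that sorts the primitive endoderm, held 6.35 and 1.42 CPM at 6 h, 24.35 and 11.56 CPM at 24 h and 603.9 and 601.1 CPM at 48 h, a rise of 7.51 (SE 0.64, edgeR adjusted p = 3.16e-05). Gata4 held 15.99 and 9.86 CPM at 6 h and 265.2 and 179.3 CPM at 48 h, whereas its relative Gata6 had already risen at 6 h. Sox17, a factor of endoderm, held 1.52 and 0.284 CPM at 6 h and 82.37 and 29.51 CPM at 48 h. Foxa2 held 0.761 and 0.19 CPM at 6 h and 31.81 and 32.21 CPM at 48 h. Cubn and Lrp2, the endocytic receptors cubilin and megalin, rose by 5.34 (SE 0.50) and 2.70 (SE 0.40), with edgeR adjusted p of 1.56e-05 and 0.000547. Of 9 visceral endoderm products 8 rose, but 4 with replicate 2 of 48 h left out and 3 with replicate 2 of 6 h left out. The list held 19 products, and only these 9 were tested. A product without counts at 6 h, such as Ttr, passed the low-count filter through the 48 h libraries. It could only be called higher. Ttr, the thyroid hormone carrier, had 0 counts at 6 h and 3.13 and 27.79 CPM at 48 h, unequal between the replicates (edgeR adjusted p = 1.73e-05, and 0.107 by DESeq2).

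Matrix and secretory genes rose with them. In the list of parietal endoderm and basement membrane genes 18 of 22 rose and none fell (median log2 3.22). For each list in this paragraph the background is all genes tested, of which 23.2% rose and 22.2% fell. Lama1, the laminin alpha chain, held 101.3 and 36.31 CPM at 6 h and 1869 and 909.7 CPM at 48 h, a rise of 4.41 (SE 0.17, edgeR adjusted p = 2.13e-08). Plat, the tissue plasminogen activator long used as a sign of parietal endoderm, held 0.888 and 0.663 CPM at 6 h and 134 and 119.5 CPM at 48 h (log2 7.34, SE 0.31, edgeR adjusted p = 3.41e-08). Sparc, a matrix protein already high at 6 h (692.3 and 422.4 CPM), reached 2078 and 963.5 CPM and was not called without the block (adjusted p = 0.0688). Among genes that fold and crosslink collagen 12 of 14 rose. Serpinh1, the collagen chaperone, held 194.9 and 148.3 CPM at 6 h and 1763 and 1400 CPM at 48 h, and P4ha2, a prolyl hydroxylase, rose by 2.71 (SE 0.21, edgeR adjusted p = 1.06e-06). Of the 25 genes for folding in the endoplasmic reticulum and for secretion 16 rose and none fell (median log2 0.59). Creb3l2, a factor that drives secretory genes, held 8 and 7.2 CPM at 6 h and 84.2 and 62.62 CPM at 48 h. Of 23 lysosomal and endocytic genes 19 rose and 1 fell, and of 21 contractile actin genes 18 rose and 1 fell. Tagln, an actin-bundling protein, held 2.28 and 1.33 CPM at 6 h and 26.95 and 40.9 CPM at 48 h. The simple keratins Krt8 and Krt18 rose by 4.11 (SE 0.30) and 4.52 (SE 0.37).

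The 8 largest increases by the naming rule came from a near-silent 6 h state. Foxf2, a forkhead factor of mesenchyme, had 0 counts at 6 h and 40.54 and 21.48 CPM at 48 h, at least 182.5-fold above the floor. Rasgrp3, an activator of Ras, had 0 counts at 6 h and 19.73 and 15.25 CPM at 48 h, at least 105.6-fold above the floor. Igfbp5, which binds insulin-like growth factors, had 1 count at 6 h and 34.72 and 64.1 CPM at 48 h. Chsy3 (a chondroitin synthase), the antisense transcript Prss23os and the matrix protein tenascin C (Tnc) had 0 counts at 6 h and 5.61 to 10.89 CPM in the 48 h libraries. Ttr and Hoxc8, given above, complete the 8. Of the late increases named by the rule, Habp2 and Akr1c12 also started from 0 counts, and Thsd4 and Irs4 from 2 and 3. Habp2 held 11.32 and 3.69 CPM and Irs4 13.58 and 62.46 CPM at 48 h. Habp2 and Akr1c12 were not called by DESeq2 (adjusted p = 0.156 and 0.164).

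Imprinted genes, expressed from the copy of a single parent, also rose. Of 16 tested members 13 (81.2%) rose and 1 (6.25%) fell between 6 and 48 h (median log2 2.03). Over all genes tested 23.2% rose and 22.2% fell. Of the 13, 6 were late, among them H19 and Peg3, 3 were first-wave decreases that came back, 1 was a first-wave increase, and 3, among them Igf2 and Dlk1, had an absolute log2 change of 0.5 or more at 6 h without a call. The growth-limiting RNA H19 held 1.78 and 4.55 CPM at 6 h, 67.34 and 54.94 CPM at 24 h and 397.2 and 813.6 CPM at 48 h, a rise of 7.52 (SE 0.42, edgeR adjusted p = 1.05e-06). Its neighbour Igf2, a fetal growth factor, held 5.2 and 4.74 CPM at 6 h and 140.9 and 305.7 CPM at 48 h. Peg3 held 74.49 and 119.4 CPM at 6 h and 746.5 and 1418 CPM at 48 h, and Dlk1 1.78 and 1.14 CPM at 6 h and 26.95 and 52.62 CPM at 48 h. The member that fell was Cdkn1c, a brake of the cell cycle. No imprinted gene fell with replicate 1 of 48 h or replicate 2 of 6 h left out. Of the list of 16 cell cycle inhibitors 10 rose, but 6 with replicate 2 of 48 h or replicate 1 of 6 h left out and 4 (near the background share) with replicate 2 of 6 h left out. Among those that rose was Cdkn2a (6.98 and 3.79 CPM at 6 h, 21.89 and 20.82 CPM at 48 h).

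Signalling genes changed in both directions, as did all genes tested, of which 23.2% rose and 22.2% fell. The shares that rose and fell were 41.7% and 20.8% for Wnt and 47.6% and 14.3% for BMP genes. They were 34.8% and 39.1% for FGF and 43.8% and 31.2% for Nodal and activin genes. Of 24 Wnt pathway genes 10 rose and 5 fell; 6 rose with replicate 2 of 48 h left out, and 3 fell without either 48 h library or replicate 1 of 6 h. The secreted Wnt antagonists Dkk1 and Sfrp5 rose: Dkk1 held 0.761 and 0.0948 CPM at 6 h and 66.63 and 31.23 CPM at 48 h, and Sfrp5 held 1.52 and 1.71 CPM at 6 h and 123.8 and 144.1 CPM at 48 h, its level at 24 h (134.5 and 89.19 CPM) being already high. Sfrp1, another secreted Wnt antagonist, was a first-wave decrease that was kept down. Of 21 BMP pathway genes 10 rose and 3 fell. The 3 were Bmp4, also a ligand, Id1 and Id3. The ligand Bmp2 rose and held 0.634 and 0.0948 CPM at 6 h and 20.81 and 14.92 CPM at 48 h. Of 23 genes of FGF signalling and its feedback 8 rose and 9 fell. Fgf4, the ligand of pluripotent cells, held 106.1 and 169.8 CPM at 6 h and 23.72 and 18.77 CPM at 48 h, whereas Fgf3, a ligand of the developing ear and endoderm, held 0.761 and 1.8 CPM at 6 h and 28.25 and 18.61 CPM at 48 h. Etv4 and Spry4, which are switched on by FGF signals, fell by 3.08 (SE 0.15) and 2.92 (SE 0.16), with edgeR adjusted p of 6.07e-08 and 1.07e-07. Of 16 Nodal and activin genes 7 rose and 5 fell; Lefty1, a Nodal antagonist, held 76.01 and 26.45 CPM at 6 h and 250.6 and 208.4 CPM at 48 h (edgeR adjusted p = 0.00032; 0.0691 without the block and 0.0540 with only the 4 libraries).

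**Figure D4:**
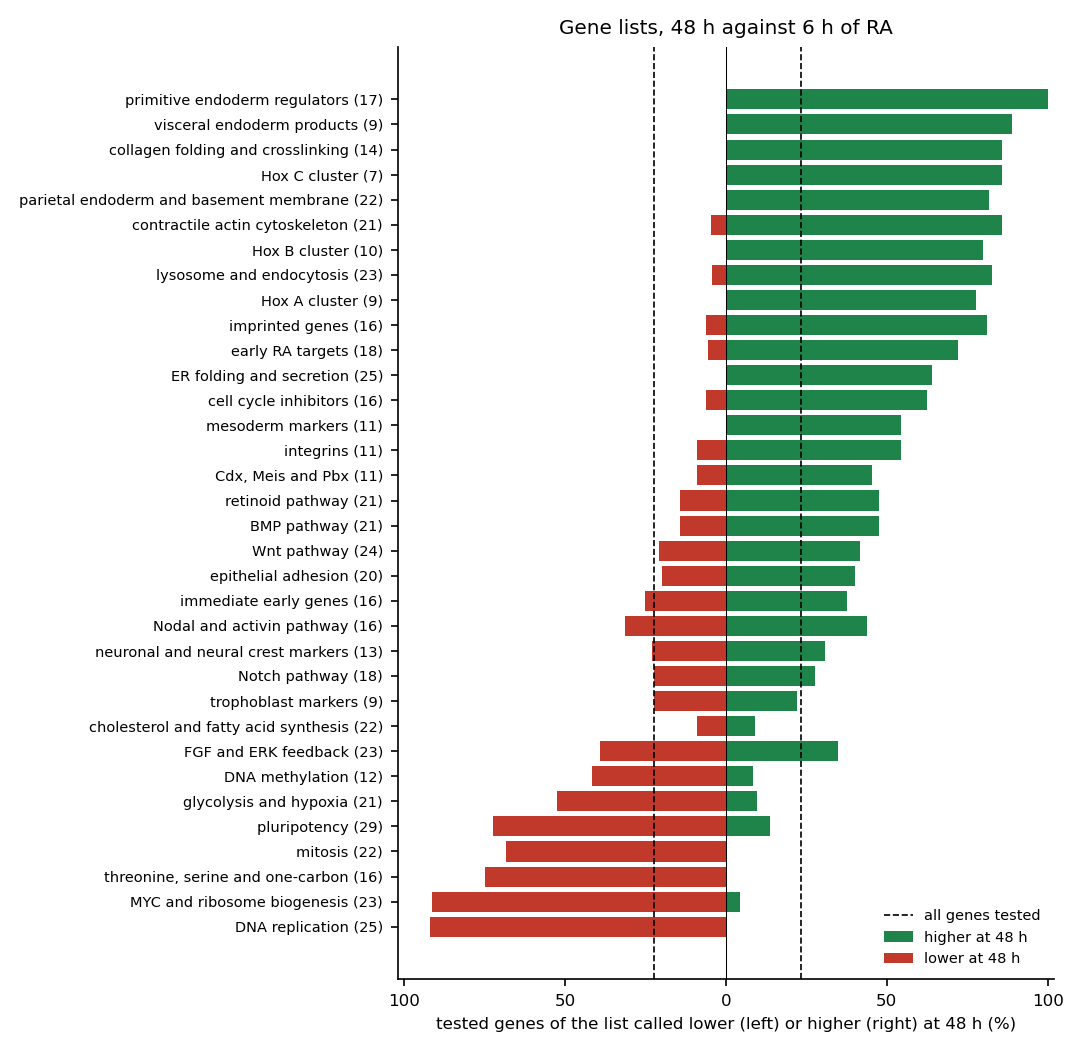
Share of the tested genes of each list (number in brackets) called higher (right, green) or lower (left, red) at 48 h than at 6 h; dashed lines mark the shares over all genes tested, 23.2% higher and 22.2% lower. Endoderm, matrix and Hox lists lie to the right, and replication, Myc and ribosome, one-carbon and pluripotency lists to the left.

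Pluripotency genes were mostly lost after 6 h rather than in the first wave. Of 29 tested members 21 fell and 4 rose between 6 and 48 h (median log2 −1.03), whereas at 6 h 3 had fallen and 2 had risen. Over all genes tested 22.2% fell and 23.2% rose between 6 and 48 h. At 6 h 1.53% of all genes tested had fallen and 3.68% had risen. Pou5f1, the gene of Oct4, held 2379 and 1718 CPM at 6 h, inside its 0 h range of 1740 to 2400 CPM for replicate 1 and just below it for replicate 2, and 946.2 and 386.1 CPM at 48 h. Nanog held 389.6 and 546.5 CPM at 6 h and 140.9 and 119.8 CPM at 48 h, a fall of 1.82 (SE 0.17, edgeR adjusted p = 4.76e-06). Tdgf1, a Nodal co-receptor and the second largest late decrease by the rule, held 276.9 and 308.9 CPM at 6 h and 30.51 and 10.49 CPM at 48 h; it was not called when only these 4 libraries were fitted (edgeR adjusted p = 0.0775). Nr0b1, an orphan receptor of stem cells, held 460.3 and 474.3 CPM at 6 h, above all 0 h libraries (253.2 to 358.8 CPM), and 64.04 and 27.46 CPM at 48 h. The 4 members that rose were Klf4, Tbx3, Lefty1 and Lefty2. Klf4 and Tbx3 are also expressed in endoderm; Klf4 held 21.19 and 21.33 CPM at 6 h and 125.1 and 53.53 CPM at 48 h, and Tbx3 350.3 and 175.8 CPM at 6 h and 606.6 and 397.2 CPM at 48 h (not called without the block, adjusted p = 0.38). Lefty2 lost its call with replicate 2 of 48 h (adjusted p = 0.247), either 6 h library (0.0501 and 0.289), either paired 0 h library (0.11 and 0.117) or either 24 h library (0.2 and 0.205) left out. Other late decreases named by the rule were Kirrel2 and Pdzd4, a slit diaphragm adhesion protein and a PDZ protein. Kirrel2 held 15.74 and 14.41 CPM at 6 h and 1.08 and 0.656 CPM at 48 h, and Pdzd4 111.3 and 110.5 CPM at 6 h and 10.03 and 6.97 CPM at 48 h. Epp13, Nkx6-3, Gm14817, Ltb and Slc28a1, also named by it, fell by 3.28 to 3.76 on the log2 scale; Nkx6-3 held 101.6 and 18.77 CPM at 6 h and 7.44 and 1.72 CPM at 48 h and was not called without the block (adjusted p = 0.101). Among all decreases the rule also names Prrt1 (7.36 and 2.94 CPM at 6 h, 0.431 and 0 CPM at 48 h) and Tgm3, a transglutaminase (5.2 and 10.52 CPM at 6 h, 0.431 and 0.328 CPM at 48 h).

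Most growth genes that fell were late by the rule above, but Myc itself had an absolute log2 change of 0.5 or more at 6 h without a call. Of 23 genes of the Myc and ribosome biogenesis list 21 fell, with a median log2 change of −0.97, and the member that rose was Mycn. For each list in this paragraph the background is all genes tested, of which 22.2% fell and 23.2% rose. Myc held 195.8 and 94.32 CPM at 6 h and 44.63 and 24.75 CPM at 48 h, a fall of 2.04 (SE 0.15, edgeR adjusted p = 8.33e-07; 0.0554 without the block). Ddx21, a nucleolar helicase, held 673.3 and 748.3 CPM at 6 h and 204.7 and 293.9 CPM at 48 h. Of 25 DNA replication genes 23 fell and none rose (median −0.74), 22 of them late, and of 22 mitosis genes 15 fell and none rose (median −0.45), though 9 fell with replicate 1 of 6 h left out. Pcna, the sliding clamp of DNA polymerase, held 337.7 and 229.5 CPM at 6 h and 117.6 and 104.8 CPM at 48 h (edgeR adjusted p = 0.00104; 0.076 without the block). Rrm2, which makes deoxynucleotides, held 600.4 and 732.0 CPM at 6 h and 221.3 and 248.8 CPM at 48 h. Of 16 genes of threonine, serine and one-carbon metabolism 12 fell and none rose, and all 12 were late. Tdh, the threonine dehydrogenase of mouse pluripotent cells, held 351.4 and 276.8 CPM at 6 h and 65.44 and 52.3 CPM at 48 h, a fall of 2.43 (SE 0.18, edgeR adjusted p = 1.21e-06). Gldc, the glycine cleavage enzyme, fell by 1.48 (SE 0.14, edgeR adjusted p = 6.54e-06). Of 21 glycolysis and hypoxia genes 11 fell and 2 rose; 6 fell with replicate 2 of 48 h left out and 5, near the background share, with replicate 2 of 6 h left out, and without replicate 1 or 2 of 6 h 0 or 1 rose. Pdk1, which keeps pyruvate from the mitochondria, held 186.8 and 197.6 CPM at 6 h and 61.13 and 42.79 CPM at 48 h.

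Other lists had members called in both directions, against a background of 23.2% higher and 22.2% lower. Of 22 genes of cholesterol and fatty acid synthesis 2 rose and 2 fell. Of 18 Notch pathway genes 5 rose and 4 fell, of 13 neuronal and neural crest markers 4 rose and 3 fell, and of 9 trophoblast markers 2 rose and 2 fell. These counts rest on single libraries: with replicate 2 of 6 h left out no neuronal marker rose and 1 fell, and with replicate 1 of 6 h left out 2 Notch genes rose. Of 16 immediate early genes 6 (37.5%) rose and 4 fell. Of 12 genes of DNA methylation 1 (8.33%) rose and 5 (41.7%) fell. The member that rose was Tet3, with 16.5 and 10.81 CPM at 6 h and 40.21 and 31.31 CPM at 48 h (edgeR adjusted p = 0.000129; 0.0687 without the block). Its relative Tet1, which also oxidises methylcytosine, held 299 and 317.7 CPM at 6 h and 113.5 and 94.43 CPM at 48 h (edgeR adjusted p = 0.00647; 0.0826 with replicate 1 of 6 h left out).

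The single DMSO library at 48 h gives the level of these genes after the same time in culture without RA. Its share of reads outside annotated genes, 58.46%, was like that of the replicate 1 libraries. It lay below both 48 h RA libraries in 2078 of the 2278 late increases (91.2%), in 124 of the 124 first-wave increases that went further and in 141 of the 152 that were kept, against 42.3% of all genes tested. It lay above both in 2473 of the 2810 late decreases (88%), against 36.8% of all genes. For the shut-off increases it lay below both in 71 and above both in 111 of 246. Notch4 held 32.22 CPM in it, Eras 75.75 CPM and Cpne5 43.14 CPM, so each was several times lower with 48 h of RA than with DMSO. Dab2 held 6.5 CPM, Lama1 84.72 CPM and H19 1.56 CPM in the DMSO library. With 1 such library these values carry no test, and since the 48 h RA libraries also chose the classes, the shares are a description only.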

How the data were processed

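Per the labels, total RNA of F9 cells was extracted with TRIzol and libraries were made with a TruSeq V2 kit and read as single ends of 72 or 50 bases. Build mm9 and the tools TopHat2 2.0.7, HTSeq, DESeq, Bowtie 0.12.9 and MACS 1.4.2 are named in the submitters' processing notes, which as held here give no role or option. The authors deposited raw read counts per Ensembl gene, 1 table of 36814 genes per library, without normalization. Entries for reads given to no gene held 72.52 to 76.78% of all counts over the 14 libraries and were left out. The 14 libraries held 7078941 to 10948932 counts on genes.

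The model was edgeR 4.0.16 (R 4.3.3; quasi-likelihood with robust estimation, TMM normalization and the default low-count filter by group) over 10 libraries, replicates 1 and 2 of 0, 6, 12, 24 and 48 h, with 1 term per group and the replicate number as a block, which leaves 4 residual degrees of freedom. The filter left 15308 genes, 14747 with a symbol. Two-sided p-values were adjusted over these genes (Benjamini-Hochberg). SE is the absolute log2 change over the square root of F. CPM values are scaled by TMM over 14 libraries. 0 h replicates 3 and 4 and the DMSO libraries have no partner and give background levels only. Where a group had 0 counts, folds are bounds against 3 counts in the group as a whole; bounds and intervals cover counting error alone.

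The pairing comes from the titles. Deviations of libraries with the same number correlated in each of 10 pairs of groups (r from 0.68 to 0.80 across genes, median 0.71). Because the number 1 libraries also share a higher share of reads outside genes, paired cultures and a difference between library sets cannot be told apart. Replicates differed by more than counting error (chi-squared per degree of freedom 34.8 at 6 h and 38.1 at 48 h).

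The comparison, gene lists and classes were chosen with earlier results of these data known. The rule names the 8 largest changes in each direction among called genes with at least 5 CPM in the higher group and no overlap between 6 h and 48 h libraries, 6 or 8 by class, fixed genes, and list members with large or opposite changes; some of these are not reported here. Genes outside this rule, Ak4, Smyd5, Ano1, Cdkn1c, Dlx3, Dppa2, Dusp1, Dusp5, Esrp1, Esrp2, Fzd2, Hoxb4, Inhbb, Klf4, Lamb1, Lef1, Lefty2, Nrip1, Otx2, Plagl1, Rara, Rarg, Rxra, Sfrp1, Snai1, Tbx3, Tinagl1, Utf1 and Whamm, were picked after their values were seen. Alternatives were no block, only the 4 libraries, all 14 libraries, DESeq2 1.42.0, RLE size factors, other filters, an absolute log2 change of at least 1, other class limits and each paired library of 0, 6, 24 and 48 h left out; none was added later. The fit was tested on simulated data. Promoters came from RefSeq (GRCm38.p6) and motifs were searched with Python 3.11.15. Deposited regions from ChIP were not used here.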

Additional observations from a re-analysis of the deposited data

Results flagged for a closer look

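Among the 152 genes whose values were examined singly, 16 had 1 of the 4 untreated libraries far from the other 3, judged by the gap to the nearest library as a share of the range; chance flags about 1 in 20 groups, and no such test was made in the groups of 2. In 7 of the 16 the library apart was replicate 1. Its share was 0.892 for Tbx3 (147 CPM against 37.05 to 48.96 CPM), 0.901 for Nkx6-3 (109 against 21.92 to 30.57 CPM), 0.896 for Pcna (526.7 against 203.7 to 237.4 CPM), 0.847 for Gm14817, 0.835 for Dusp5, 0.937 for Foxa2 and 0.843 for Bmp2. Replicate 2 stood apart for Nanog (0.849) and Ttr (1), replicate 3 for Clic5 (0.862) and Pxdn (0.838). Replicate 4 stood apart for Rxrg (0.878; 23.54 CPM against 7.34 to 9.32 CPM), Hoxb1 (0.925), Hoxb9 (0.842), Nr2f1 (1) and Akr1c12 (1). For Nr2f1, Akr1c12 and Ttr the other 3 libraries had 0 counts.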

How the results depend on the processing

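Calls between 48 h and 6 h numbered 6396 by DESeq2, 7224 with only the 4 libraries, 7037 with RLE size factors, 7175 without the filter and 6960 with a filter of 1 CPM. RLE moved the median over all genes from −0.01 to −0.02. Of the alternatives, dropping the pairing moved this count most. Without the replicate block there were 2465 calls (1533 higher, 932 lower), 79 at 6 h against 0 h and 2548 at 48 h against 0 h. Without it the first-wave increases were 14 shut off, 35 kept and 22 that went further, with 18 that fell back in all; 3 decreases came back, and 906 increases and 719 decreases were late. With all 14 libraries and no block the counts were 3089 (1821 higher, 1268 lower), 268 at 6 h, 69 shut off, 16 that came back, 46 that went further, 73 that fell back in all, and 1025 and 984 late. With an absolute log2 change of at least 1 they were 3376 (1004 lower), 493 at 6 h, 3461 at 48 h against 0 h, 112 shut off, 56 that came back, 72 that went further, 123 that fell back in all, and 1251 and 599 late. With a limit of 0.25 on the 6 h change 1489 increases were late.

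With each paired library of 0, 6, 24 and 48 h left out in turn (those of 12 h were not), the ranges were 4437 to 8214 genes called, 2244 to 4140 higher, 2084 to 4201 lower, 321 to 1223 at 6 h, 96 to 373 increases shut off, 104 to 417 that fell back in all, 71 to 180 kept, 54 to 182 that went further, 28 to 204 decreases that came back, 1269 to 2641 late increases and 1627 to 3447 late decreases. Leaving out a 24 h library also changes the spread that all groups share: 6 h calls were then 1204 or 1223. Without replicate 1 or 2 of 6 h they were 351 or 321, and without those of 0 h 404 or 374. The cause of these shifts was not tested.

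Of the values of single genes under these settings, 2308 kept direction and side of the threshold, 94 lost and 19 gained a call, and 7 changed sign. With a library left out, the genes that changed sign ranged from −0.45 to 0.22 (Nrip1), −0.0047 to 1.29 (Csn3), −0.47 to 0.77 (Ano1), −0.28 to 5.32 (Lef1), −1.32 to 0.21 (Otx2) and −0.0625 to 0.373 (Dnmt3b); of these only Lef1 had a call. Other calls not mentioned above moved too: Lef1 was lost by DESeq2 (adjusted p = 0.0570), Sox7 and Dnmt3l with all 14 libraries (0.0891 and 0.0600) and Tet1 without the filter (0.0818), and Snai1 gained one with only the 4 libraries (0.0301). The 2 libraries a group and the absence of a 6 h DMSO library limit what the comparison can show: time in culture before 24 h has no control, and genes of few counts, such as the Hoxc genes, rest on the 48 h libraries alone.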
